A study of Mus musculus with 9 samples.

Results

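Neutrophil granule and granulocyte genes were examined in the RNA of bone marrow-derived dendritic cells (BMDCs) that had or had not been given exosomes. The 31 genes were chosen by name and comprise the proteins of primary and secondary granules, the calgranulins, the stefins, and surface markers of neutrophils and their precursors. All 31 were found among the 57238 entries of the table of reads per gene, and all 31 passed the filter on low counts, which kept 15028 genes. They were grouped by the stage at which neutrophils make them, with 6 genes of primary granules and precursors, 13 of secondary granules and maturing cells, 8 late genes (the calgranulins, Retnlg and the stefins) and 4 genes shared with monocytes.

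The cells came from bone marrow of wildtype C57BL/6 mice and were grown for 6 days with GM-CSF at 20 ng/ml according to the labels. Control BMDCs (CTR) were left without exosomes. NE-treated BMDCs were exposed for 24 hours to exosomes from the NIH-3T3 line of mouse fibroblasts, which are not cancerous, and TDE-treated BMDCs for the same time to exosomes from tumor cells. The labels do not name the tumor line. Each group had 3 libraries of 17469782 to 21092943 estimated reads, and the study's methods describe the BMDCs as purified without giving the marker for these samples. No source says whether the libraries came from separate cultures or mice, so p-values measure only the spread between these samples, which may be technical.

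Neutrophils load their granules in sequence. Promyelocytes make the primary (azurophil) granules with myeloperoxidase and serine proteases, myelocytes and metamyelocytes make the secondary (specific) granules with lactoferrin and cathelicidin, and later cells fill their cytosol with the calgranulins S100a8 and S100a9. GM-CSF drives granulocytes as well as dendritic cells from bone marrow, and granulocytes and their precursors are a known part of such cultures. In RNA of a mixed culture, fewer cells of a type and less RNA per cell cannot be told apart.

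CTR replicate 1 stood apart from the other libraries. Across all tested genes its correlation with the other 2 controls averaged 0.87, while the lowest correlation between any other 2 libraries was 0.942. Its difference followed gene length. Genes shorter than 600 bases were 3.02 times as high in it as in the mean of CTR replicates 2 and 3 (median of 531 genes), and genes of 2400 bases or more were 0.733 times as high (median of 8348 genes). The members lay along the same slope, with a median of 5.78 for the 8 members under 600 bases and 1.13 for the 6 members of 2400 bases or more. The Spearman correlation between length and this ratio was -0.84 over the 31 members, which share their libraries, and it is given as a description. NE replicate 3 had a smaller shift of the same kind, with medians of 1.29 and 0.914 for short and long genes. The medians of the members in these classes were 1.61 and 1.10. The cause was not tested. Fold changes against the controls are therefore given from the fit to all 9 libraries and from the fit without CTR replicate 1.

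**Figure D1:**
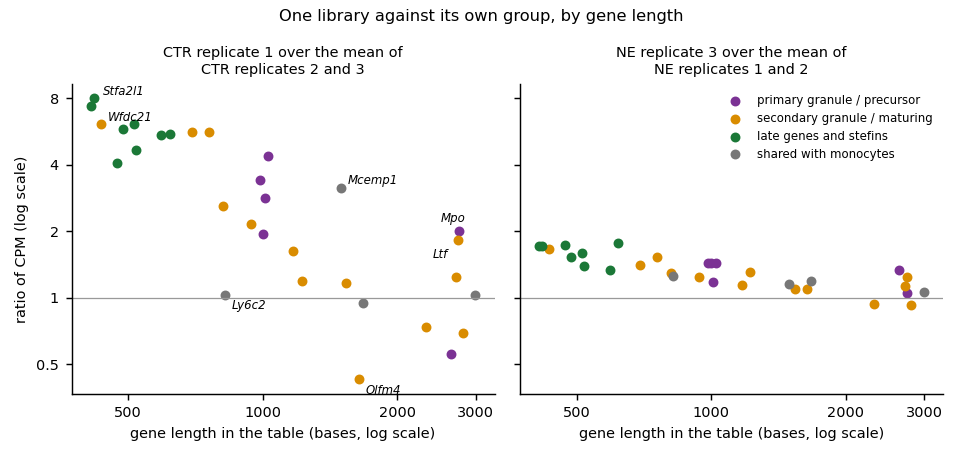
Each point is a member, with gene length in bases on a log axis and, on a log axis, the ratio of its CPM (reads of a gene per 1000000 reads of the library after scaling) in CTR replicate 1 to the mean of CTR replicates 2 and 3 (left) or in NE replicate 3 to the mean of NE replicates 1 and 2 (right), coloured by stage. In the left panel the ratio goes from 7.97 for Stfa2l1 down to 0.427 for Olfm4, and in the right panel it stays between 0.928 and 1.78.

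The calgranulins S100a9 and S100a8, which together form calprotectin, were the members with the highest level per length in every library. As RPKM, which is CPM divided by the gene length in kilobases, S100a9 stood at 25522, 6385 and 4603 in the CTR libraries, at 4685, 5474 and 7044 in NE, and at 2806, 3108 and 2888 in TDE. The TDE libraries lay below all others, and CTR replicate 1 lay far above them. Ngp, a granule protein related to cathelicidin, came next by the mean of each group, at 1653 RPKM in CTR, 1705 in NE and 467 in TDE. Behind it the order differed between groups. Camp, the precursor of the antimicrobial peptide cathelicidin, was 8th of 31 in NE and 16th in TDE, Retnlg (resistin-like gamma) was 9th and 20th, and the iron-binding lactoferrin (Ltf) was 5th and 9th. Mcemp1, a membrane protein of myeloid and mast cells, went the other way, from 15th in NE to 8th in TDE, and Wfdc21, a small secreted WAP domain protein, from 11th to 5th. Gfi1, which encodes a transcriptional repressor needed to make neutrophils, was the lowest member at 0.735 to 2.07 RPKM over the 9 libraries. Some neighbours in the order did not differ beyond their spread, such as Camp and Chil3 in CTR, at means of 717.9 and 717.8 RPKM, where the Camp libraries ran from 235 to 1588 RPKM.

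**Figure D2:**
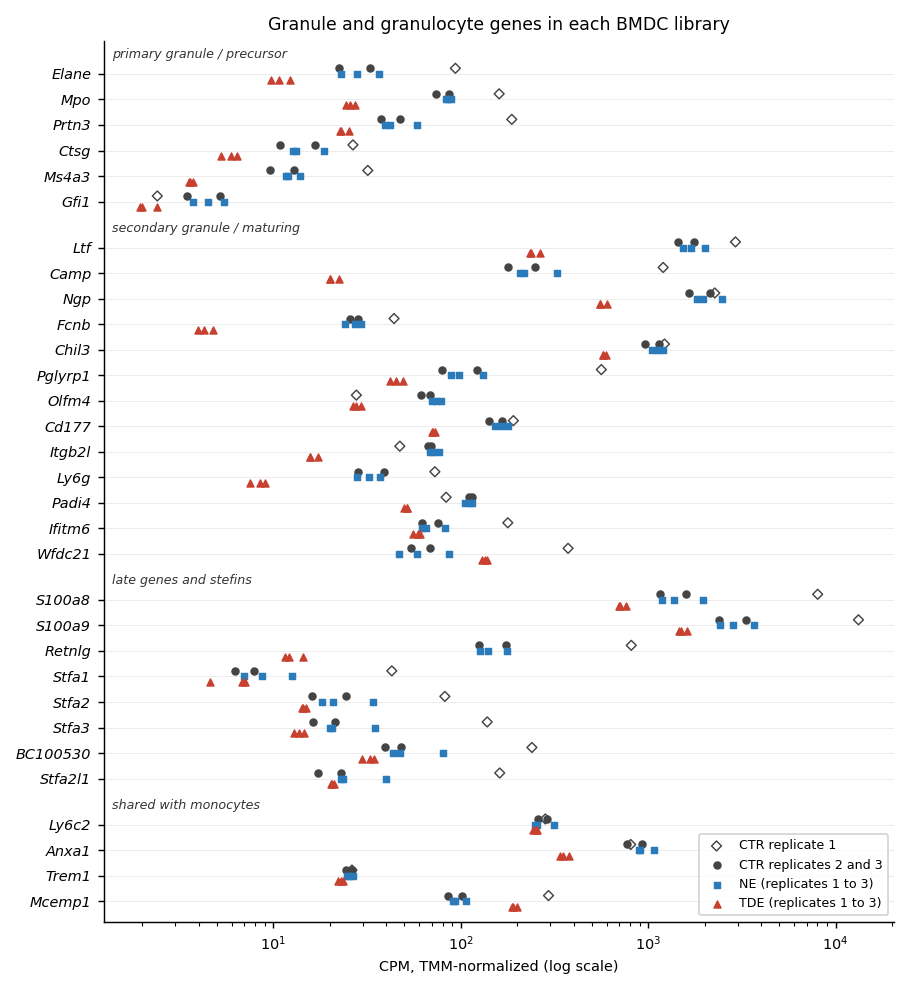
Each row is a member and each marker a library, with CPM on a log axis; open diamonds are CTR replicate 1, filled circles CTR replicates 2 and 3, squares NE and triangles TDE. Triangles lie to the left of all control markers for 26 members, and squares overlap the control markers for 30 members.

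In TDE-treated against CTR BMDCs, 18 of the 31 members fell and 0 rose (edgeR's quasi-likelihood test, adjusted p under 0.05). Over all tested genes 9.34% fell and 7.57% rose. The median log2 fold change of the members was -1.75 and that of all tested genes -0.06. The share that fell was 5 of 6 in the primary group, 10 of 13 in the secondary group, 2 of 8 in the late group and 1 of 4 in the shared group. Without CTR replicate 1, 21 members fell, where 18.0% of all tested genes fell, and 2 rose, where 16.4% rose, and the median was -1.12. The 18 that fell with all libraries were among these 21. DESeq2, another count model, gave 23 that fell and 0 that rose, where 15.1% and 11.6% of all tested genes did so. Limma voom, which weights each library by how well it matches its group, gave 27 and 2 (26.7% and 25.8% of all tested genes), and edgeR with offsets fitted to gene length gave 19 and 1 (13.5% and 11.4%). In the late group 3 of 8 fell without CTR replicate 1, 6 of 8 with DESeq2, 6 of 8 with voom and 3 of 8 with length offsets. The median log2 fold change of the late group was -1.90 with all libraries and -0.48 without CTR replicate 1. That of the secondary group was -1.82 and -1.23. In 26 of 31 members all 3 TDE libraries lay below all 3 CTR libraries, as in 21.8% of all tested genes, and in 0 members they lay above.

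**Figure D3:**
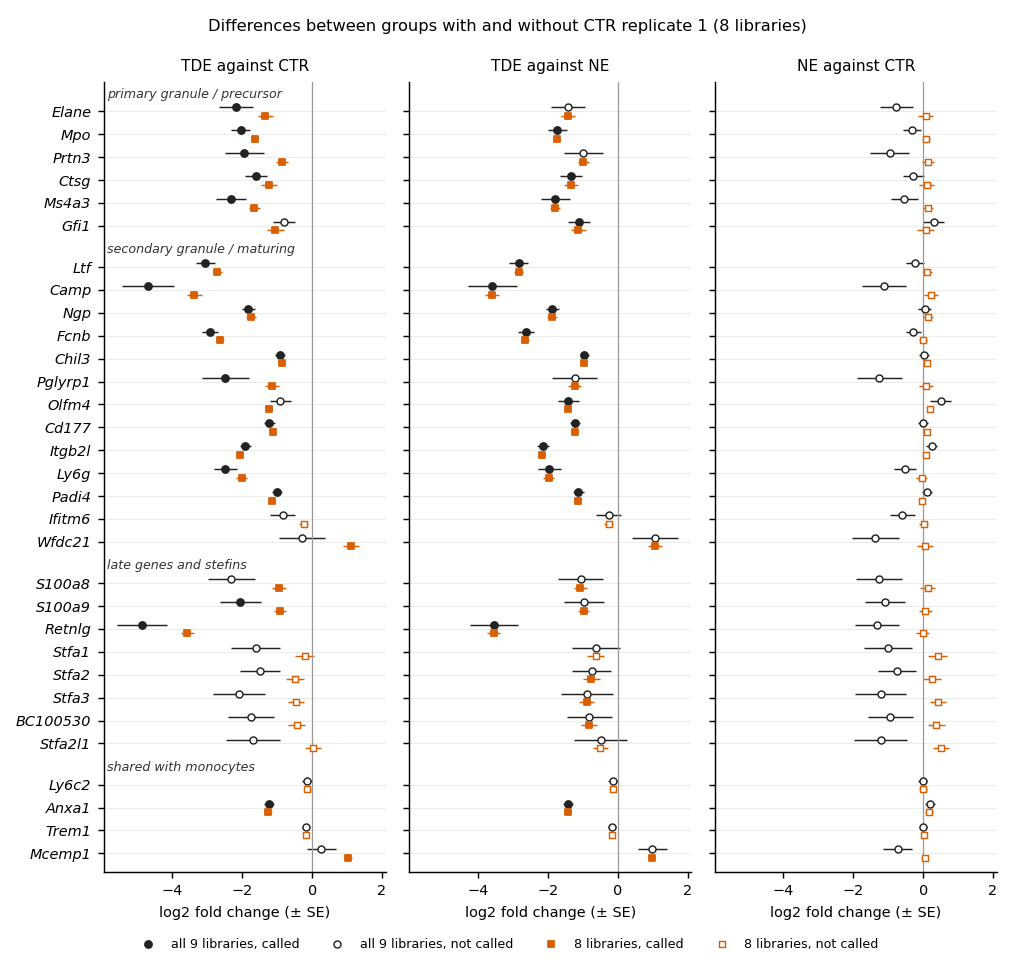
Each row is a member and each panel a comparison, with the log2 fold change and its standard error; circles are the fit to all 9 libraries, squares the fit without CTR replicate 1, and filled markers passed the threshold. Left of 0 lie 30 of 31 circles in the first panel, 29 of 31 in the second and 24 of 31 in the third, and in the third panel the squares lie between -0.05 and 0.51.

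Of the primary granule genes, Mpo, the myeloperoxidase that makes hypochlorous acid, was measured at 160, 87.1 and 73.8 CPM in the CTR libraries, 83.5, 85.3 and 88.7 CPM in NE and 25.8, 27.4 and 24.4 CPM in TDE. The TDE libraries were low throughout and did not overlap with either group. Mpo fell 4.14-fold against CTR (log2 -2.05 ± 0.28 SE, edgeR's adjusted p = 0.0023) and 3.13-fold without CTR replicate 1 (log2 -1.65 ± 0.09 SE, adjusted p = 4.07e-06). It lies at chr11:87793581-87804413 on the plus strand of GRCm38 and shares exon sequence with Gm11505 on the opposite strand.

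The serine proteases of the same granules moved the same way. Elane, neutrophil elastase, had 93.7, 32.7 and 22.3 CPM in CTR, 27.9, 22.9 and 36.5 CPM in NE and 9.75, 10.7 and 12.3 CPM in TDE, with no overlap between TDE and the other groups. It fell by 2.18 ± 0.50 SE on the log2 scale (edgeR's adjusted p = 0.021), and by 1.34 ± 0.22 SE without CTR replicate 1 (adjusted p = 0.0016). Prtn3, proteinase 3, stood at 187, 47.5 and 37.7 CPM in CTR, 41.9, 39.5 and 58.5 CPM in NE and 22.7, 25.3 and 23 CPM in TDE. Its fall was much smaller without CTR replicate 1. The log2 fold change of -1.94 ± 0.56 SE (edgeR's adjusted p = 0.049) became -0.86 ± 0.17 SE without that library (adjusted p = 0.0047). Ctsg, cathepsin G, had 26.6, 16.6 and 10.9 CPM in CTR, 12.7, 13.2 and 18.6 CPM in NE and 5.99, 6.39 and 5.28 CPM in TDE, and fell by 1.61 ± 0.32 SE on the log2 scale (edgeR's adjusted p = 0.012), and fell by 1.24 ± 0.22 SE without CTR replicate 1 (adjusted p = 0.0026). Elane and Prtn3 are neighbours on chromosome 10, and Prtn3 shares exon sequence with Plppr3 on the opposite strand.

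Of the 2 other genes of this group, Ms4a3, a membrane protein of granulocyte and monocyte progenitors, had 31.9, 13 and 9.64 CPM in CTR, 11.9, 11.7 and 13.9 CPM in NE and 3.71, 3.60 and 3.55 CPM in TDE. Its TDE libraries were the most alike of the primary group, with a coefficient of variation of 2.27%, and it fell by 2.32 ± 0.42 SE on the log2 scale (edgeR's adjusted p = 0.0078), and fell by 1.65 ± 0.15 SE without CTR replicate 1. Gfi1 was read few times, between 35 and 115 reads per library. It had 2.41, 5.19 and 3.48 CPM in CTR and 1.94, 2.40 and 1.99 CPM in TDE, so that CTR replicate 1 nearly touched the TDE libraries. It did not pass against CTR with all libraries (log2 -0.81 ± 0.31 SE, edgeR's adjusted p = 0.10) and fell without CTR replicate 1 (log2 -1.05 ± 0.24 SE, adjusted p = 0.0098). It overlaps A430072P03Rik on the opposite strand.

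The secondary granule genes held the largest falls among granule proteins. Ltf had 2923, 1759 and 1451 CPM in CTR, 1542, 1698 and 2002 CPM in NE and 234, 265 and 239 CPM in TDE. The lowest library without tumor exosomes was thus far above the highest TDE library, and the fall was 8.32-fold (log2 -3.06 ± 0.28 SE, edgeR's adjusted p = 0.0004) or 6.57-fold without CTR replicate 1 (log2 -2.72 ± 0.13 SE, adjusted p = 1.51e-06). Camp had 1203, 251 and 178 CPM in CTR, 206, 218 and 326 CPM in NE and 20.2, 22.4 and 20.0 CPM in TDE. Its fall of 26.1-fold (log2 -4.71 ± 0.74 SE, edgeR's adjusted p = 0.0046) rested in large part on CTR replicate 1 and was 10.4-fold without it (log2 -3.37 ± 0.21 SE, adjusted p = 8.16e-06). Fcnb, ficolin B, a lectin of the complement system, had 44.1, 28.3 and 25.8 CPM in CTR, 24.3, 27.3 and 29.3 CPM in NE and 4.77, 3.99 and 4.28 CPM in TDE. It fell 7.52-fold (log2 -2.91 ± 0.23 SE, edgeR's adjusted p = 0.00022) and 6.26-fold without CTR replicate 1.

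Ngp was less reduced than these. It had 2267, 2148 and 1643 CPM in CTR, 1817, 1968 and 2467 CPM in NE and 555, 603 and 554 CPM in TDE, a fall of 3.54-fold (log2 -1.82 ± 0.19 SE, edgeR's adjusted p = 0.00065) that was 3.34-fold without CTR replicate 1. Chil3, the chitinase-like protein Ym1, was at 1222, 1136 and 956 CPM in CTR, 1051, 1123 and 1194 CPM in NE and 576, 573 and 594 CPM in TDE. Its fall of 1.90-fold (log2 -0.93 ± 0.14 SE, edgeR's adjusted p = 0.0042) was the smallest among the members that fell, and its transcript is 94.7% identical to that of Chil4, so that reads may be split between them. Pglyrp1, which binds bacterial peptidoglycan, had 563, 122 and 79.0 CPM in CTR, 88.8, 98.4 and 132 CPM in NE and 42.1, 49.1 and 45.0 CPM in TDE. Its log2 fold change of -2.49 ± 0.67 SE (edgeR's adjusted p = 0.038) was -1.15 ± 0.20 SE without CTR replicate 1 (adjusted p = 0.0023).

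Ly6g, Itgb2l and Cd177, surface markers of maturing neutrophils, fell as well, and so did the enzyme Padi4. Ly6g, the antigen most used to recognise mouse neutrophils, had 72.8, 38.8 and 28.4 CPM in CTR, 28.1, 32.3 and 37.3 CPM in NE and 8.53, 9.01 and 7.52 CPM in TDE, and fell 5.58-fold (log2 -2.48 ± 0.33 SE, edgeR's adjusted p = 0.0024) or 4.05-fold without CTR replicate 1. Itgb2l, an integrin beta chain of granulocytes, had 47.3, 69.2 and 66.8 CPM in CTR, 71.2, 76.6 and 68.6 CPM in NE and 15.7, 17.4 and 15.7 CPM in TDE. Here CTR replicate 1 was the lowest control, and the fall of 3.75-fold (log2 -1.91 ± 0.17 SE, edgeR's adjusted p = 0.00034) was 4.20-fold without it. Cd177, a glycoprotein anchored on the neutrophil surface, had 191, 167 and 142 CPM in CTR, 152, 166 and 180 CPM in NE and 70.8, 72.9 and 70.6 CPM in TDE. Padi4, which citrullinates histones when neutrophils cast extracellular traps, had 83.6, 116 and 110 CPM in CTR, 112, 115 and 106 CPM in NE and 51.5, 51.4 and 50.1 CPM in TDE. Both fell by about the same amount, by 1.22 ± 0.14 SE and 1.02 ± 0.14 SE on the log2 scale (edgeR's adjusted p = 0.0013 and 0.0031), and by 1.12 ± 0.10 SE and 1.16 ± 0.07 SE without CTR replicate 1.

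The remaining 3 genes of the secondary group behaved otherwise. Olfm4, olfactomedin 4, had 27.8, 68.3 and 61.6 CPM in CTR, 70.4, 73.6 and 78.8 CPM in NE and 29.5, 27.7 and 26.6 CPM in TDE. Only CTR replicate 1 overlapped with TDE, and the gene did not pass with all libraries (log2 -0.91 ± 0.29 SE, edgeR's adjusted p = 0.067) but fell without that replicate (log2 -1.23 ± 0.09 SE, adjusted p = 1.41e-05). Its exons overlap Gm6999 on the same strand. Ifitm6, of the interferon-induced transmembrane family, passed in neither fit (edgeR's adjusted p = 0.14 with all libraries and 0.20 without CTR replicate 1), at 62.3 to 178 CPM in CTR and 56.0 to 60.6 CPM in TDE. Wfdc21 had 374, 68.9 and 54.1 CPM in CTR, 46.7, 58.3 and 87.0 CPM in NE and 135, 138 and 130 CPM in TDE. The TDE libraries lay above every other library but CTR replicate 1. The gene did not pass with all libraries (log2 -0.30 ± 0.66 SE, edgeR's adjusted p = 0.76) and rose without that replicate (log2 1.12 ± 0.23 SE, adjusted p = 0.0052), so that its direction rests on that library.

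Among the late genes, Retnlg was the member with the largest fall. It had 813, 174 and 125 CPM in CTR, 126, 139 and 177 CPM in NE and 12.1, 14.4 and 11.6 CPM in TDE. The TDE libraries lay below all others, and the fall of 29.2-fold (log2 -4.87 ± 0.73 SE, edgeR's adjusted p = 0.0038) was 11.9-fold without CTR replicate 1 (log2 -3.57 ± 0.19 SE, adjusted p = 2.74e-06). The calgranulins differed less. S100a8 had 8026, 1601 and 1157 CPM in CTR, 1188, 1369 and 1959 CPM in NE and 710, 760 and 696 CPM in TDE, and it missed the threshold with all libraries (log2 -2.32 ± 0.68 SE, edgeR's adjusted p = 0.05003) but fell without CTR replicate 1 (log2 -0.94 ± 0.20 SE, adjusted p = 0.0064). S100a9 had 13246, 3314 and 2389 CPM in CTR, 2431, 2841 and 3656 CPM in NE and 1457, 1613 and 1499 CPM in TDE. It passed in both fits, with a log2 fold change of -2.05 ± 0.59 SE (edgeR's adjusted p = 0.047) that was -0.91 ± 0.18 SE without CTR replicate 1 (adjusted p = 0.0039).

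The 5 stefins, small inhibitors of cysteine proteases, were not called against CTR by edgeR with all libraries or without CTR replicate 1. Stfa2, Stfa3 and BC100530 were called as lower by DESeq2 and by voom, and all 5 by edgeR when CTR replicate 3 was left out and CTR replicate 1 kept. Stfa1, Stfa2, Stfa3, BC100530 and Stfa2l1 lie within chr16:36156811-36455392 of GRCm38, and their log2 fold changes ran from -2.09 to -1.49 with all libraries and from -0.49 to 0.02 without CTR replicate 1. CTR replicate 1 was 4.06 to 7.97 times as high as the other controls for these genes, which are 412 to 619 bases long. Stfa3 shows the pattern, at 139, 21.3 and 16.3 CPM in CTR, 20.2, 20.7 and 35.0 CPM in NE and 13, 14.6 and 13.7 CPM in TDE. Its 95% interval without CTR replicate 1 ran from -0.93 to 0.002 on the log2 scale, so that a fall of up to that size is not shown to be absent. The transcripts of BC100530 and Stfa1 are 97.1% identical and those of Stfa2 and Stfa2l1 96.0%. Stfa1 had fractional reads in 7 libraries and BC100530 in 8, so the share of each copy is uncertain. BC100530 also overlaps Gm15845 on the opposite strand.

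The 4 genes shared with monocytes split. Anxa1, annexin A1, a phospholipid-binding protein that dampens inflammation, had 807, 927 and 772 CPM in CTR, 903, 890 and 1070 CPM in NE and 339, 377 and 352 CPM in TDE, and fell 2.35-fold (log2 -1.23 ± 0.14 SE, edgeR's adjusted p = 0.0013) with all libraries and 2.40-fold without CTR replicate 1. Mcemp1 had 294, 102 and 85.6 CPM in CTR, 90.8, 93.1 and 106 CPM in NE and 187, 200 and 190 CPM in TDE. As with Wfdc21, only CTR replicate 1 lay above the TDE libraries. It did not pass with all libraries (log2 0.26 ± 0.41 SE, edgeR's adjusted p = 0.67) and rose 2.04-fold without that replicate (log2 1.03 ± 0.10 SE, adjusted p = 0.0001). Ly6c2, a surface antigen of monocytes that neutrophils carry at a lower level, and Trem1, a receptor that amplifies inflammatory signals, did not pass in edgeR's test with all libraries or without CTR replicate 1. Voom called both as lower, by 0.17 and 0.18 on the log2 scale (adjusted p = 0.042 and 0.039). Ly6c2 lay between 244 and 316 CPM and Trem1 between 22.1 and 26.8 CPM over all 9 libraries. Their 95% intervals without CTR replicate 1 ran from -0.35 to 0.07 and from -0.32 to -0.004 on the log2 scale. The interval of Trem1 leaves out 0, although its unadjusted p in edgeR's test of that fit was 0.076. The transcript of Ly6c2 is 97.6% identical to that of Ly6c1, and its reads were fractional in all 9 libraries.

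Summed over the genes of a stage, the levels show the same split between the groups. The 13 secondary genes held 9197, 6047 and 4859 CPM in the CTR libraries, 5274, 5717 and 6790 CPM in NE and 1800, 1894 and 1816 CPM in TDE. The 6 primary genes held 502, 202 and 158 CPM in CTR, 182, 177 and 222 CPM in NE and 69.8, 75.8 and 70.5 CPM in TDE. The 8 late genes held 22750, 5214 and 3766 CPM in CTR, 3857, 4470 and 5994 CPM in NE and 2267, 2480 and 2289 CPM in TDE. Most of the late sum was S100a8 and S100a9, at 1601 and 3314 CPM in CTR replicate 2 and 710 and 1457 CPM in TDE replicate 1. It therefore says little of the stefins. In all 3 stages the TDE libraries lay below the others, and CTR replicate 1 was the highest library. The TDE libraries were also the most alike, with a median coefficient of variation over the members of 5.33%, against 16.3% in NE and 60.3% in CTR. The last values include NE replicate 3 and CTR replicate 1, which were shifted by gene length. Across all tested genes NE replicates 1 and 2 correlated at 0.989, near the 0.9895 to 0.99 between TDE libraries. NE replicate 3 correlated with them at 0.9777 and 0.9771.

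**Figure D4:**
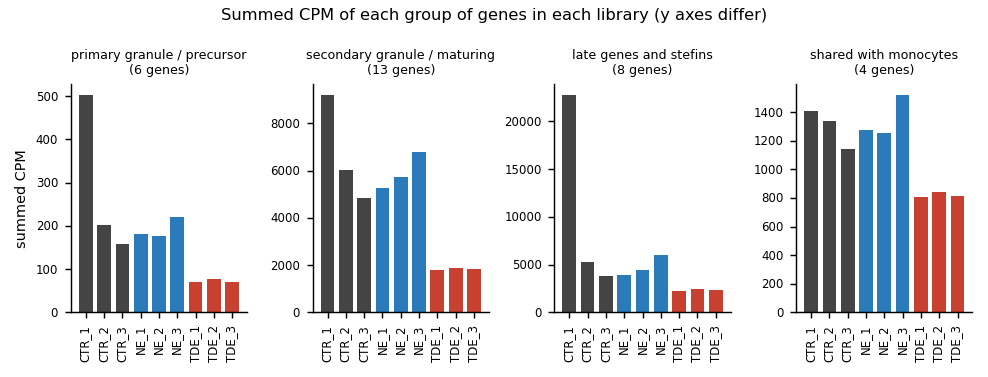
Bars give the summed CPM of the genes of each stage in each library, with a y axis from 0 that differs between panels. The TDE bars are the lowest in every panel, at 1800 to 1894 CPM for the secondary genes, and the bar of CTR replicate 1 is the tallest except among the genes shared with monocytes.

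Ratios between genes within a library do not depend on the library total, and they showed that members fell unequally. Per length, Ngp stood to Ltf at 1.74, 2.74 and 2.54 in CTR, at 2.65, 2.60 and 2.77 in NE and at 5.33, 5.11 and 5.21 in TDE. Camp stood to Ltf at 1.49, 0.516 and 0.445 in CTR, at 0.484, 0.465 and 0.589 in NE and at 0.312, 0.307 and 0.303 in TDE. The TDE libraries were apart from the other 6 in both ratios, upward in the first and downward in the second. The ratio of S100a8 to S100a9 was nearly level, at 0.496 to 0.572 in all libraries but CTR replicate 1, where it was 0.647. Elane to Mpo overlapped between the groups, at 0.845 to 1.63 in CTR, 0.751 to 1.15 in NE and 1.06 to 1.41 in TDE. No test was made of these ratios.

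**Figure D5:**
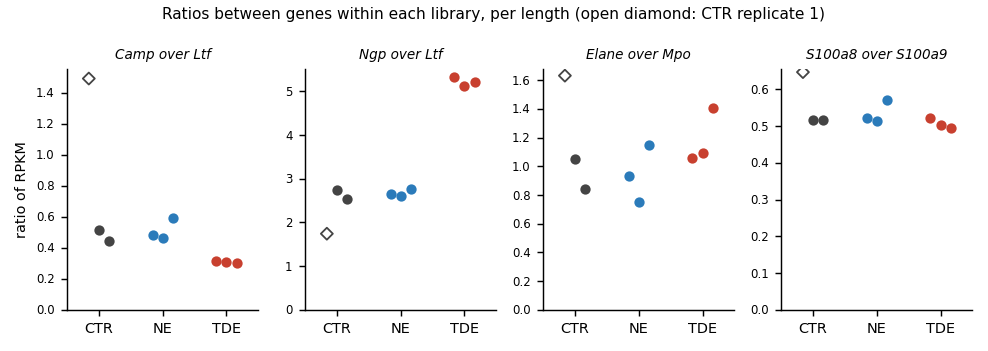
Each point is a library and each panel the ratio of 2 genes per length (RPKM over RPKM), with the y axis from 0; the open diamond is CTR replicate 1. TDE points lie at 0.303 to 0.312 for Camp over Ltf and at 5.11 to 5.33 for Ngp over Ltf, apart from all other libraries, and mix with them for Elane over Mpo and S100a8 over S100a9.

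Camp, Ngp and Ltf lie on chromosome 9, at chr9:109847379-109849617, chr9:110419747-110423012 and chr9:111019271-111042767 of GRCm38. Their promoters are shown with those of Fcnb and Retnlg because these 5 genes carry the largest falls and the contrast between Ngp and Ltf. The sequences are the 250 bases before the RefSeq start on GRCm38.p6, 5′ to 3′ on the strand of the gene. For Camp, Ngp, Ltf and Fcnb this start lies inside the gene as placed by GENCODE, so their windows reach into it. Capitals mark the letters TTGCNNAA, a core that C/EBP factors bind, and AGGAAG, a core that PU.1 binds, each on either strand. C/EBP factors and PU.1 are the regulators that direct granule genes in maturing neutrophils.
Ltf promoter (chr9:111019042-111019291, plus strand): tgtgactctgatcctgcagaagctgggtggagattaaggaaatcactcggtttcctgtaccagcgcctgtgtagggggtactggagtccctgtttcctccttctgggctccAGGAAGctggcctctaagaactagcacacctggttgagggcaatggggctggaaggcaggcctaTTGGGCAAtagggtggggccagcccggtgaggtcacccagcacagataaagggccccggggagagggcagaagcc
Ngp promoter (chr9:110419558-110419807, plus strand): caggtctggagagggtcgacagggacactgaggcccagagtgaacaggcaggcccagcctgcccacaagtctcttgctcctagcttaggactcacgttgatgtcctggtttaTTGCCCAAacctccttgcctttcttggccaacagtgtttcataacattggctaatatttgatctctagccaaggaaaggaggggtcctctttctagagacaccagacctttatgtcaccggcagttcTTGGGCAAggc
Camp promoter (chr9:109849457-109849706, minus strand): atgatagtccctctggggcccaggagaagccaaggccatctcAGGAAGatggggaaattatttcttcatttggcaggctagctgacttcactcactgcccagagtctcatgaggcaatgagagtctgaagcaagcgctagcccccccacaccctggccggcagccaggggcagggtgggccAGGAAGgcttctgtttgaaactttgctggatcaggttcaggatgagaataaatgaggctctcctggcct
Fcnb promoter (chr2:28084879-28085128, minus strand): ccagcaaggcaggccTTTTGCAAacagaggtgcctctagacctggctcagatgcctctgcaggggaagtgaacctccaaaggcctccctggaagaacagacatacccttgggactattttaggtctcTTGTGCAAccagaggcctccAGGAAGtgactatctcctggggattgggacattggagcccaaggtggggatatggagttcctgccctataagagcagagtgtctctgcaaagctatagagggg
Retnlg promoter (chr16:48872358-48872607, plus strand): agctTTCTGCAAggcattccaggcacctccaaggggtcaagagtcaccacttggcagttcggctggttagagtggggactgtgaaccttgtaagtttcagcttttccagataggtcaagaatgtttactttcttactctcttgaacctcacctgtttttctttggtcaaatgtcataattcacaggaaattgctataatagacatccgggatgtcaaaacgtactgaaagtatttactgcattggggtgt

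In the Ltf promoter the C/EBP letters begin 75 bases before the start and the PU.1 letters 139 bases before it. Ngp holds the C/EBP letters at 138 and 11 bases before the start and no PU.1 letters. Camp holds the PU.1 letters at 208 and 69 bases and no C/EBP letters. The Ngp letters at 11 bases and the Camp letters at 69 bases lie inside the gene as placed by GENCODE. Fcnb holds both kinds of letters, and Retnlg holds the C/EBP letters 246 bases before its start. Of the 29 members with a promoter in the RefSeq table, which has 32 promoters for them, 9 held the C/EBP letters and 22 the PU.1 letters. By promoter the shares were 28.1% for C/EBP, against 9.56% of all 32851 promoters, and 75% for PU.1, against 29.5%. For the RUNX letters TGTGGT on either strand they were 31.2% and 14%, and for TATAAA on the strand of the gene 21.9% and 7.59%. C/EBP and PU.1 letters overlapped in 0 member promoters. These matches describe the letters of the windows, and the absence of a match says nothing of a factor. BC100530 and Wfdc21 had no entry in the table.

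TDE-treated BMDCs were next compared with NE-treated BMDCs, which asks whether the difference depends on the source of the exosomes. Both comparisons use the same TDE libraries. Against NE, 16 of 31 members fell and 0 rose, where 7.22% of all tested genes fell and 6.73% rose. The median log2 fold change was -1.12 for the members and -0.02 for all tested genes. The primary group gave 4 of 6, the secondary group 10 of 13, the late group 1 of 8 and the shared group 1 of 4. CTR replicate 1 is in neither group but enters the spread that the fit shares between groups, and the standard error for Ltf was 0.27 with it and 0.12 without it. Without it, 24 members fell, where 21.5% of all tested genes fell, and 2 rose, where 19.2% rose. By stage, 6 of 6 primary, 11 of 13 secondary, 6 of 8 late and 1 of 4 shared genes then fell. The low count of the late group with all libraries was thus not kept without CTR replicate 1. DESeq2 gave 17 that fell and 0 that rose, where 9.95% and 10.2% of all tested genes did so, voom 24 and 2 (28.3% and 27.0%) and the length offsets 23 and 2 (10.5% and 10.6%).

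The sizes against NE were as follows. Camp fell by 3.58 ± 0.70 SE on the log2 scale (edgeR's adjusted p = 0.012), Retnlg by 3.54 ± 0.68 SE (adjusted p = 0.011) and Ltf by 2.83 ± 0.27 SE (adjusted p = 0.00048). Fcnb fell by 2.63 ± 0.23 SE, Itgb2l by 2.15 ± 0.17 SE and Ly6g by 1.96 ± 0.33 SE (edgeR's adjusted p = 0.00028, 0.00017 and 0.0059). No library of these 6 genes in TDE reached the lowest NE library. Olfm4 (log2 -1.41 ± 0.30 SE, edgeR's adjusted p = 0.016) and Gfi1 (log2 -1.11 ± 0.31 SE, adjusted p = 0.046), which had not passed against CTR, fell against NE. Elane, Prtn3, Pglyrp1 and S100a9, which had fallen against CTR, did not pass against NE with all libraries (edgeR's adjusted p = 0.099, 0.32, 0.28 and 0.35), and whether the comparisons differ for them was not tested. Without CTR replicate 1 all 4 fell against NE, by 1.42 ± 0.20 SE, 0.99 ± 0.16 SE, 1.24 ± 0.19 SE and 0.97 ± 0.16 SE on the log2 scale (adjusted p = 0.00056, 0.0011, 0.00079 and 0.0014).

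The members that were higher in TDE were also set against NE. All 3 TDE libraries lay above all 3 NE libraries for Wfdc21 and Mcemp1, and below them for 27 members, where 26.8% and 27.7% of all tested genes did so. With all libraries Wfdc21 had a log2 fold change of 1.07 ± 0.67 SE and Mcemp1 of 0.99 ± 0.42 SE (edgeR's adjusted p = 0.38 and 0.17). Both rose once CTR replicate 1 was left out (log2 1.06 ± 0.20 SE and 0.98 ± 0.09 SE, adjusted p = 0.0027 and 4.34e-05). Of the stefins, Stfa2, Stfa3 and BC100530 fell against NE in that fit (log2 -0.75, -0.89 and -0.82, edgeR's adjusted p = 0.031, 0.0096 and 0.015), while Stfa1 and Stfa2l1 did not pass (log2 -0.62 and -0.49, adjusted p = 0.066 and 0.087). NE replicate 3 was 1.60 to 1.78 times as high as the other NE libraries for the stefins.

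Fibroblast exosomes gave no called member. In NE-treated against CTR BMDCs, 0 of 31 members passed the threshold in edgeR's test, where 0.0% of all tested genes fell or rose, and 0 members had an unadjusted p under 0.05, against 487 of all tested genes. DESeq2 called 0 members, where 0.0399% of all tested genes fell and 0.0% rose, and voom 0 members, where 0.106% fell and 0.0133% rose. Without CTR replicate 1 edgeR's test also called 0 members, where 0.0196% of all tested genes fell and 0.0% rose. The median log2 fold change of the members was -0.54 with all libraries and 0.10 without CTR replicate 1, so that its sign turned with that library. Olfm4 was the member whose 3 NE libraries all lay above the CTR libraries, at 70.4 to 78.8 against 27.8 to 68.3 CPM, where 4.05% of all tested genes did so, and 0 members lay below, where 3.67% did (Olfm4: log2 0.50 ± 0.29 SE, edgeR's adjusted p = 0.66).

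The intervals show what these libraries could have missed. Without CTR replicate 1, the 95% interval of the NE effect ran from -0.13 to 0.37 on the log2 scale for Ltf, from -0.18 to 0.62 for Camp, from -0.09 to 0.27 for Mpo and from -0.35 to 0.26 for Ly6g. All 4 intervals leave out the size of the TDE effect on the same gene. Stfa1 had the widest interval of the members, from -0.11 to 0.93. The interval of Stfa2l1 ran from 0.06 to 0.97, with an unadjusted p of 0.056 and an adjusted p of 1.0 in edgeR's test.

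Other genes of the neutrophil pathway were read from a list of 38 further genes of granules, the NADPH oxidase, receptors, transcription factors and protease inhibitors, of which 36 were tested. Against CTR, 10 of the 36 fell and 4 rose, where 9.34% and 7.57% of all tested genes did so, with a median log2 fold change of -0.14. Without CTR replicate 1, 12 fell and 11 rose, where 18.0% and 16.4% of all tested genes did so, with a median of 0.08. With all libraries, 3 of 9 of the granule list fell and 0 rose, and 2 of 6 of the oxidase list rose. Of the receptor list 2 of 10 tested rose and 2 fell, of the factor list 4 of 8 fell and of the inhibitor list 1 of 3 tested fell. Without CTR replicate 1, the granule list gave 3 that fell and 2 that rose, and the oxidase list 2 that rose. The receptor list then gave 6 that rose and 3 that fell, the factor list 4 that fell, and the inhibitor list 2 that fell and 1 that rose. Cebpe, the C/EBP factor that switches on secondary granule genes, had 85.9, 30.7 and 24.4 CPM in CTR, 23.1, 25.5 and 34.3 CPM in NE and 6.87, 6.82 and 7.16 CPM in TDE. It fell by 2.75 ± 0.46 SE on the log2 scale (edgeR's adjusted p = 0.0061) and by 2.0 without CTR replicate 1. Myb, a factor of immature precursors, fell by 1.67 ± 0.21 SE and Cd63, a membrane protein of primary granules and lysosomes, by 1.62 ± 0.42 SE (edgeR's adjusted p = 0.0016 and 0.034). Myb fell by 1.87 and Cd63 by 0.92 on the log2 scale without CTR replicate 1.

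The 4 genes of this list that rose with all libraries were receptors for formylated peptides, with which phagocytes sense bacteria, and parts of the oxidase. Fpr2, a receptor for formylated peptides, had 141, 130 and 131 CPM in CTR, 123, 118 and 142 CPM in NE and 575, 562 and 571 CPM in TDE, and rose by 2.09 ± 0.13 SE on the log2 scale (edgeR's adjusted p = 8.23e-05). Fpr1, its relative, rose by 1.10 ± 0.15 SE, Rac2, a GTPase of the oxidase, by 0.93 ± 0.23 SE and Cybb, its catalytic subunit, by 0.74 ± 0.19 SE (edgeR's adjusted p = 0.0030, 0.029 and 0.034). These 4 genes rose by 2.12, 1.25, 1.25 and 0.60 on the log2 scale, in the same order, when CTR replicate 1 was left out. Lcn2, which shares secondary granules with lactoferrin, had 1602, 730 and 587 CPM in CTR, 632, 682 and 808 CPM in NE and 2028, 2066 and 2030 CPM in TDE, and so stood opposite to Ltf in the same libraries. It did not pass against CTR with all libraries (log2 1.07 ± 0.34 SE, edgeR's adjusted p = 0.069) and rose without CTR replicate 1 (log2 1.62, adjusted p = 2.48e-05) and against NE (log2 1.53, adjusted p = 0.022). Csf3r, the receptor for G-CSF, was at 180 to 194 CPM in CTR and 222 to 229 CPM in TDE (log2 0.27, edgeR's adjusted p = 0.12), and without CTR replicate 1 it rose by 0.24 on the log2 scale (adjusted p = 0.028). Mmp8, the neutrophil collagenase, was at 306 to 361 and 379 to 391 CPM and passed in neither of these fits (edgeR's adjusted p = 0.33 and 0.30). Cybb, Lcn2, Csf3r and Mmp8 were chosen for mention after their values were seen.

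Markers of other cells in the culture were read in the same comparison, TDE against CTR, where 9.34% of all tested genes fell and 7.57% rose, or 18.0% and 16.4% without CTR replicate 1. The lists of eosinophils and of basophils or mast cells moved in the direction of the members. All 7 eosinophil markers fell, with a summed level of 607 to 1642 CPM in CTR, 619 to 706 CPM in NE and 112 to 140 CPM in TDE, and so did all 7 markers of basophils or mast cells, from 170 to 453 CPM in CTR and 186 to 265 CPM in NE to 54.0 to 59.9 CPM in TDE. Both counts were the same without CTR replicate 1.

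Of 10 dendritic cell markers 6 fell and 0 rose, from a sum of 4822 to 14692 CPM in CTR to 2592 to 2759 CPM in TDE, Cd74 and the MHC class II genes among them. Leaving out CTR replicate 1 gave 8 that fell. Itgax (107 to 178 CPM), Flt3 (11.6 to 16.0 CPM) and Zbtb46 (13.7 to 19.9 CPM) were present in all libraries and did not pass with all of them. Itgax and Zbtb46 fell once CTR replicate 1 was left out (log2 -0.47 and -0.43, edgeR's adjusted p = 0.0075 and 0.0091).

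The counts of most other lists changed with that library. Of 10 macrophage markers 1 rose and 2 fell with all libraries, and 2 rose and 7 fell without CTR replicate 1. The median log2 fold change of this list was -0.44 and -0.56 in these fits. Its summed level was higher in TDE, at 5276 to 5653 CPM against 4187 to 4597 CPM in CTR. Adgre1 went against that median and was higher in TDE in both fits, from 206 to 480 CPM in CTR to 2114 to 2312 CPM in TDE. Of 6 monocyte markers 1 rose and 1 fell, and 2 rose and 3 fell without it (1518 to 2511 CPM summed in CTR and 1775 to 1831 CPM in TDE). Of 8 markers of dividing cells 2 rose, and 6 without it (220 to 270 and 385 to 402 CPM). Of 4 progenitor markers 1 fell, and 2 fell and 1 rose without it (26.7 to 46.2 and 21 to 21.9 CPM). Of 5 fibroblast markers 2 rose, and 2 rose and 1 fell without it (5.83 to 6.16 and 9.06 to 10.1 CPM). All 4 tested lymphocyte markers fell in both fits (14.5 to 34.1 and 7.65 to 8.72 CPM), and the 1 tested red cell marker passed in neither (0.807 to 11.3 and 0.166 to 1.67 CPM). The defining lymphocyte markers Cd3e and Ncr1 stood at 0.271 CPM or less in all libraries. The part of these cell types in the fall of the granule genes was not tested.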

How the data were processed

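RNA sequencing of BMDCs, 3 libraries each of CTR, NE and TDE, was re-analysed from 1 table of estimated counts (expected counts) of reads per gene, deposited by the authors without normalization beside gene lengths. It had 0 columns of values without a sample. The submitters' processing notes name TopHat2 2.1.1, DESeq2 1.24.0 and R 3.3.1. The counting program, genome build and strand setting are not given in the sources used here.

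Values were rounded and filtered with filterByExpr (15028 genes kept). All 9 libraries entered the same fit, made in R 4.3.3 by edgeR 4.0.16 after TMM scaling, and contrasts of the group means were tested by quasi-likelihood F tests (Benjamini-Hochberg adjustment over all tested genes, threshold 0.05). Standard errors are the log2 fold change over the square root of F, and 95% intervals are 1.96 standard errors either side. This multiplier leaves out the few degrees of freedom of the F test, so the intervals are narrower than that test implies. CPM are scaled by TMM, and RPKM are CPM over the deposited length. For ratios by length class, 0.5 CPM was added. The floor of 3 reads was 0.142 to 0.172 CPM, and intervals and floors cover counting or fitting error only. Positions are from GENCODE vM21 and promoters from RefSeq, GRCm38.p6, matched by symbol.

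All 31 members were named. Of the further neutrophil genes past the threshold against CTR, up to 3 per direction were named by size of change, if their libraries did not overlap and their mean reached 5 CPM. The members and lists were chosen with earlier results of these data known. Alternatives were DESeq2 1.42.0, limma 3.58.1 voom with quality weights, other normalizations, filters and sets of libraries, a replicate block, and, added after seeing the data, offsets fitted to gene length. The code was tested on simulated data.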

Additional observations from a re-analysis of the deposited data

How the results depend on the processing

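The call of 18 members in TDE against CTR gave 13 to 25 members when each library was left out in turn, and the 16 in TDE against NE gave 10 to 26. Against NE, leaving out CTR replicate 1 gave 26, and leaving out any 1 TDE library gave 10. Limma voom with quality weights called 29 members against CTR (27 fell, 2 rose) and 26 against NE, edgeR on only the 6 libraries compared 26 against NE (14 against CTR), and offsets fitted to gene length, added after seeing the data, 25 against NE (20 against CTR). DESeq2, median-ratio factors, library totals and the filters gave 17 to 23 against CTR and 15 to 17 against NE. Requiring also a change of 1 or more in log2 terms left 17 against CTR and 15 against NE. In NE against CTR every alternative named here gave 0. Fewer libraries or a spread without CTR replicate 1 enter by construction, and other causes were not tested.

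With the replicate number as a block, 14 members fell against CTR, 14 against NE and 0 were called in NE against CTR, where 4.46%, 3.92% and 0.0% of all tested genes fell. All 14 were among those that fell without the block in each comparison. The deviations of same-numbered libraries correlated at -0.0348, -0.0562 and 0.0723 for TDE and CTR. They correlated at 0.0268, -0.0394 and -0.0714 for TDE and NE, and at -0.37, 0.185 and -0.585 for NE and CTR. The deviations are taken from group means of 3 libraries, which include CTR replicate 1 and NE replicate 3. These values therefore cannot show whether same-numbered libraries share a culture or batch.

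Directions turned as follows, on the log2 scale. Against CTR, Wfdc21 became 0.049 with the block, 1.003 with voom and 1.03 with length offsets, and Ly6c2 became 0.24 with length offsets. Over the libraries left out, Wfdc21 ran from -0.71 to 1.12, Stfa2l1 from -2.15 to 0.017 and Mcemp1 from -0.033 to 1.03. In NE against CTR, where no member passed, length offsets gave Ctsg 0.16, Ms4a3 0.014, Fcnb 0.069, Ifitm6 0.020, Stfa1 0.099, Stfa2 0.22, Stfa3 0.084, BC100530 0.048, Stfa2l1 0.11 and Ly6c2 0.31. Voom gave Gfi1 -0.21, Ngp -0.090, Chil3 -0.0094, Padi4 -0.014, Stfa1 0.073, Stfa3 0.030 and Stfa2l1 0.11. Library totals gave Cd177 0.14, Ly6c2 0.11 and Trem1 0.13, and no filter gave 0.034, 0.022 and 0.034. Over the libraries left out, the NE differences ran for Elane from -1.11 to 0.078, Mpo -0.52 to 0.093, Prtn3 -1.32 to 0.13, Ctsg -0.53 to 0.11, Ms4a3 -0.83 to 0.14, Ltf -0.41 to 0.12, Camp -1.53 to 0.22, Ngp -0.11 to 0.14, Chil3 -0.064 to 0.10, Pglyrp1 -1.68 to 0.082, Cd177 -0.10 to 0.10, Padi4 -0.026 to 0.20, Ifitm6 -0.85 to 0.018, Wfdc21 -1.78 to 0.056, S100a8 -1.67 to 0.13, S100a9 -1.47 to 0.060, Stfa1 -1.42 to 0.41, Stfa2 -1.12 to 0.26, Stfa3 -1.65 to 0.43, BC100530 -1.33 to 0.38, Stfa2l1 -1.66 to 0.51, Ly6c2 -0.14 to 0.051, Trem1 -0.048 to 0.024 and Mcemp1 -1.03 to 0.042. The upper end came without CTR replicate 1 for 20 of these 24.

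With 3 libraries a group and CTR replicate 1 among them, small differences were not detectable, and a mixed culture does not separate cell number from expression.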

Other observations

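Some genes of the further neutrophil list that fell against CTR but were outside the naming rule are given here, chosen after their values were seen. Mmp9, the protease of gelatinase granules, had 313, 309 and 285 CPM in CTR, 295, 305 and 310 CPM in NE and 163, 176 and 168 CPM in TDE, a fall of 0.84 ± 0.11 SE on the log2 scale (edgeR's adjusted p = 0.0025). Mmp25, a membrane-bound matrix protease of neutrophils, fell by 1.22 ± 0.15 SE and Cxcr4, which holds cells in the marrow, by 0.79 ± 0.14 SE (edgeR's adjusted p = 0.0017 and 0.0084). Cxcr2, which draws neutrophils out of the marrow, did not pass with all libraries, at 31.5 to 64.8 CPM in CTR and 46.9 to 51.0 CPM in TDE (adjusted p = 0.79), and fell by 0.36 on the log2 scale without CTR replicate 1 (edgeR's adjusted p = 0.023). The receptor gene Cxcr1 was at 0.273 CPM or less in every library and was not tested. Cebpa, a factor of early granulocyte precursors, fell by 0.93 ± 0.14 SE and Serpinb1a, an inhibitor of elastase, by 1.42 ± 0.26 SE (adjusted p = 0.0039 and 0.0084). Mmp9 fell by 0.82, Mmp25 by 1.36, Cxcr4 by 0.91, Cebpa by 1.02 and Serpinb1a by 1.07 on the log2 scale without CTR replicate 1.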
